A study of Homo sapiens with 9 samples.

Results

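The 10 CXC and CC chemokine genes described here were CXCL1, CXCL2, CXCL3, CXCL5, CXCL6, CXCL8, CXCL16, CCL2, CCL5 and CCL20. They were taken by gene symbol from the 58219 genes quantified by RNA-seq in MDA-MB-231, a widely used human breast carcinoma line that lacks hormone receptors. LYPLA1 encodes APT1, an enzyme that removes fatty acids from proteins, and the study asked about APT1 in the division of Notch and Wnt signalling between daughter cells. In 3 groups of 3 libraries each, shAPT1 cells carried a lentiviral short hairpin RNA against APT1 and had been selected with puromycin, APT1wt cells carried a lentivirus for stable expression of wild-type APT1, and control cells expressed a scrambled RNA from a lentivirus. All 3 groups are therefore transduced cells in the same serum-containing medium, and the labels do not say whether each line is 1 clone or whether its libraries came from separate cultures. The p-values thus rest on a spread between libraries that may be technical.

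Chemokines are small secreted proteins that attract white blood cells by binding receptors coupled to G proteins. The CXC and CC families are named after the spacing of their first cysteines, and CXC members with the residues Glu-Leu-Arg just before that motif act on CXCR2, some also on CXCR1, and attract neutrophils. In epithelial and tumour cells their transcription is driven by NF-kappaB downstream of IL-1 and TNF, and their short-lived mRNAs are removed by decay factors such as ZFP36 and the nuclease encoded by ZC3H12A.

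The 6 neutrophil-attracting members lie together on chromosome 4, over 358.8 kb from CXCL8 to CXCL2 (GRCh38, GENCODE 29). CXCL8 lies at chr4:73740506-73743716 and CXCL1 at chr4:73869393-73871242, both on the plus strand, with CXCL6 between them at chr4:73836497-73849064. CXCL5 at chr4:73995642-73998779, CXCL3 at chr4:74036589-74038807 and CXCL2 at chr4:74097035-74099293 are on the minus strand. The other members lie elsewhere, with CXCL16 at chr17:4733526-4739922, CCL2 at chr17:34255218-34257203, CCL5 at chr17:35871491-35880793 and CCL20 at chr2:227805739-227817564. The 30 coding bases around the Glu-Leu-Arg codons, in capitals, are shown because this stretch sets the 6 clustered genes apart from CXCL16 and the CC genes and shows how alike CXCL1, CXCL2 and CXCL3 are.
CXCL1: gccactGAACTGCGCtgccagtgcttgcag
CXCL2: gccactGAACTGCGCtgccagtgcttgcag
CXCL3: gtcactGAACTGCGCtgccagtgcttgcag
CXCL5: ttgagaGAGCTGCGTtgcgtttgtttacag
CXCL6: ctgacaGAGCTGCGTtgcacttgtttacgc
CXCL8: gctaaaGAACTTAGAtgtcagtgcataaag

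Each stretch was read on the coding strand from the protein-coding GENCODE 29 transcript with the largest share of the gene's TPM, and each lies within exon 2. CXCL6 is the exception, as its protein-coding transcripts all stood at 0 TPM, and ENST00000226317.9 was used. The positions are chr4:73869680-73869709 for CXCL1, chr4:74098882-74098911 for CXCL2, chr4:74038373-74038402 for CXCL3, chr4:73998289-73998318 for CXCL5, chr4:73836984-73837013 for CXCL6 and chr4:73741562-73741591 for CXCL8. The main coding transcript of CXCL1 shared 165 of its 31-base words with that of CXCL2, or 15.5% of them, and that of CXCL3 shared 100 (9.57%) with CXCL2, whereas CXCL8 shared none with the other clustered members. Reads from the shared stretches were divided between CXCL1, CXCL2 and CXCL3 by the quantification, so small differences among these 3 genes are uncertain.

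The promoters of the clustered genes also resemble each other. RefSeq promoter sequences (GRCh38.p14, from 250 bases before to 50 bases after the gene start) were at hand for 7 of the 10 members, namely these 6 and CCL20. The 9 letters GGAATTTCC, one form of the NF-kappaB site, were searched on both strands and were found once in each of the 6 clustered promoters but not in that of CCL20, beside 0.461% of all 35116 promoters of the same length. Only this exact sequence was searched, so a site of another form, in CCL20 or any other promoter, would be missed. The windows below hold the match in capitals and are shown because they carry the sequence the 6 genes share.
CXCL1: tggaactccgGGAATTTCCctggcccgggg
CXCL2: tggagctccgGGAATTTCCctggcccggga
CXCL3: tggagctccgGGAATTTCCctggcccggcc
CXCL5: atgagttcagGGAATTTCCccagcatccca
CXCL6: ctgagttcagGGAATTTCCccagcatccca
CXCL8: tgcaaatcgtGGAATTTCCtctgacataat

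The windows, each written 5′ to 3′ on the gene's own strand, lie at chr4:73869305-73869334 for CXCL1, chr4:74099253-74099282 for CXCL2, chr4:74038748-74038777 for CXCL3, chr4:73998748-73998777 for CXCL5, chr4:73836579-73836608 for CXCL6 and chr4:73740468-73740497 for CXCL8. The match began 77 or 78 bases before the RefSeq start in CXCL1, CXCL2 and CXCL3, and 89 to 91 bases before it in CXCL5, CXCL6 and CXCL8. The windows of CXCL1 and CXCL8 lie outside the gene as GENCODE 29 draws it, and those of CXCL2, CXCL3, CXCL5 and CXCL6 lie inside it. TGANTCA, one form of the AP-1 site, was also searched on both strands and occurred in the CXCL8 promoter alone among the 7, 137 bases before the start and clear of the other match, beside 7.71% of all promoters. A match of letters is a description of the sequence and was not measured as a binding site here. CXCL5 and CXCL6, which hold the same match, were nearly silent in these cells.

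Depth was 12381931 to 18667383 estimated reads per library, and no library was left out of the reported fit. LYPLA1 was lower in shAPT1 (log2 fold change -1.29 ± 0.07 SE, edgeR adjusted p = 2e-08) and higher in APT1wt (0.60 ± 0.06, adjusted p = 1.1e-05) than in control. In TPM (a length-corrected share of each library's transcripts) LYPLA1 averaged 35.1 in shAPT1, 170 in APT1wt and 86.8 in control. The rise in APT1wt was thus larger by TPM than in the fit on counts, and the reason was not tested. The line markers VIM and CD44 were abundant, at 1801 to 2373 and 659 to 923 TPM, and the hormone receptor genes ESR1 and PGR stood at or below 0.219 TPM. ERBB2, EPCAM and CDH1, like them expected low or absent, stood at 27.5 to 37.3, 7.42 to 10.9 and 0.383 to 2.76 TPM. Of 8 tested line markers, 4 were higher and 1 lower (CD44, -0.66 ± 0.08, adjusted p = 2.7e-05) in shAPT1 than in control. The 4 were CDH1 (1.04 ± 0.34), KRT8 (0.64 ± 0.10), KRT18 (0.54 ± 0.09) and EGFR (0.33 ± 0.08), with adjusted p = 0.038, 0.0005, 0.00044 and 0.0058. In APT1wt 3 were higher, CDH1, KRT18 and KRT8 (adjusted p = 0.027, 0.00036 and 0.0083), and 1 lower (VIM, -0.25 ± 0.06, adjusted p = 0.0082). CDH1 averaged 0.791 TPM in shAPT1 and 0.775 TPM in control, so its rise in the fit on counts was not seen by TPM. In APT1wt CDH1 had 0.586, 0.566 and 2.76 TPM, beside 0.555, 1.39 and 0.383 TPM in control, so these groups overlapped. The reason for the difference between counts and TPM was not tested. Over all tested genes 12.8% were called higher and 11.6% lower in shAPT1, and 11.8% and 11.6% in APT1wt. The leukocyte genes PTPRC, CD3E and ITGAM stood between 0 and 0.407 TPM in all 9 libraries. Over the 15 leukocyte markers the summed level was 119 to 134 TPM in shAPT1, 134 to 177 TPM in APT1wt and 122 to 147 TPM in control, nearly all of it from CD68 and LCP1. Of 5 tested leukocyte markers, CD68 and CSF1R were lower in shAPT1 than in control (-0.62 ± 0.12 and -0.84 ± 0.22, adjusted p = 0.0015 and 0.012). CD68 was lower in APT1wt as well (-0.51 ± 0.12, adjusted p = 0.0059). LCP1, an actin-bundling protein also made by carcinoma cells, was higher in both engineered lines, by 1.94 ± 0.09 in shAPT1 and 2.56 ± 0.09 in APT1wt on the log2 scale (adjusted p = 7.2e-09 and 9.9e-10). The endothelial markers summed to 59.3 to 77.4 TPM in shAPT1, 102 to 106 TPM in APT1wt and 41.3 to 50.7 TPM in control, and most of this was ESAM. Of 4 tested, TIE1 and ESAM were higher in shAPT1 than in control (2.08 ± 0.26 and 0.44 ± 0.08, adjusted p = 6e-05 and 0.0017), and in APT1wt ESAM was higher and KDR lower (1.23 ± 0.08 and -0.55 ± 0.18, adjusted p = 2.2e-07 and 0.036). The fibroblast markers summed to 13.3 to 22.7 TPM in shAPT1, 20.1 to 24.7 TPM in APT1wt and 17.9 to 20.7 TPM in control. Of 4 tested, COL1A2, PDGFRB and COL1A1 were higher and FBLN1 lower in shAPT1 than in control (1.69 ± 0.35, 1.39 ± 0.21, 0.51 ± 0.13 and -1.14 ± 0.15, adjusted p = 0.0026, 0.00027, 0.0094 and 9.9e-05), with a median of 0.95. In APT1wt PDGFRB and COL1A1 were higher (1.14 ± 0.21 and 0.54 ± 0.13, adjusted p = 0.0015 and 0.0076). With the length offset 1 fibroblast marker was higher in shAPT1 and 0 in APT1wt. The endothelial genes CDH5 and VWF and the fibroblast genes DCN, LUM and PDGFRA stayed below 0.43 TPM, and PECAM1 stood between 0.161 and 1.15 TPM. The part of these marker changes in the chemokine results was not tested.

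One library stood apart within its group on these genes. Library 1 of shAPT1 had CXCL1 at 9.03-fold, CXCL8 at 6.09-fold, CXCL3 at 4.14-fold and CXCL2 at 3.83-fold the mean level of shAPT1 libraries 2 and 3. LYPLA1 stood at 1.14-fold in the same contrast, with 38.2 TPM in library 1 beside 30.5 and 36.7 TPM in libraries 2 and 3. Across all 15233 tested genes, 73 were at least 2-fold higher in shAPT1 library 1 than in both other shAPT1 libraries and 147 were at least 2-fold lower, 1.44% in all, against 0.44% to 1.04% for the other 8 libraries. The 73 held 4 of the 5 tested chemokine members (CXCL1, CXCL2, CXCL3 and CXCL8), with IL1A, IL1B, IL6, TNIP3, BIRC3, ZC3H12A and MMP1 from the other lists. In none of the other 8 libraries was a tested member at least 2-fold above both companions. The shAPT1 comparisons of the 5 tested members are therefore given with and without that library. Fold changes and counts for other genes and lists include it unless stated otherwise.

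CXCL1, also known as GRO-alpha, had 143, 16.6 and 15.03 TPM in shAPT1 libraries 1 to 3, 250.1, 249.9 and 245 TPM in the APT1wt libraries and 111, 156 and 143 TPM in the control libraries. The 3 APT1wt libraries all lay above the 3 control libraries, shAPT1 libraries 2 and 3 lay far below every control library, and shAPT1 library 1 lay among the controls. By level, CXCL1 ranked 1033, 6878 and 7399 among 19625 coding genes in the shAPT1 libraries, 523 to 539 in APT1wt and 909 to 1310 in control.

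CXCL8, or interleukin-8, the main human ligand of CXCR1 and CXCR2, had 138.3, 22.6 and 22.8 TPM in shAPT1, 109.8, 109 and 113 TPM in APT1wt and 137.6, 174 and 159.99 TPM in control. All APT1wt values lay below all control values, whereas shAPT1 library 1 was just above the lowest control library. CXCL2, or GRO-beta, had 16.6, 5.06 and 3.59 TPM in shAPT1, 15.8, 17.1 and 16.6 TPM in APT1wt and 27.8, 29.8 and 27.3 TPM in control. Here both engineered lines lay wholly below control. CXCL3, or GRO-gamma, had 12.98, 3.12 and 3.16 TPM in shAPT1, 19.3, 19.3 and 21.1 TPM in APT1wt and 19.4, 27.7 and 23.8 TPM in control. For CXCL3 shAPT1 lay wholly below control and the APT1wt and control libraries overlapped. By TPM, 31.1% of all tested genes had groups that did not overlap between shAPT1 and control, 10.4% with shAPT1 lower, and 35.0% between APT1wt and control. Of all tested genes, 18.7% lay wholly lower and 16.3% wholly higher in APT1wt than in control. In bulk RNA, fewer cells that make a chemokine and less of its RNA per cell cannot be told apart.

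**Figure D1:**
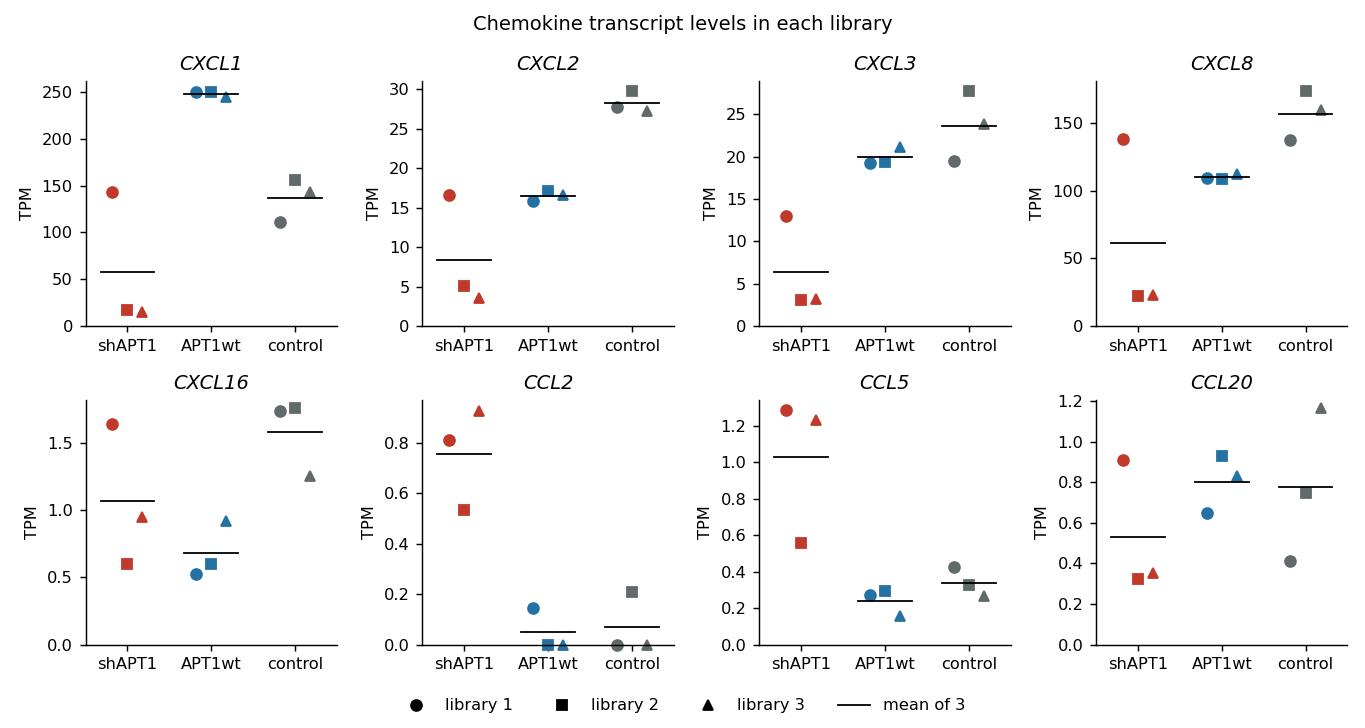
Level (TPM, linear axes from 0) of 8 chemokine genes in shAPT1, APT1wt and control cells; each symbol is 1 library and the line is the mean of 3. shAPT1 library 1 sits near the control libraries for CXCL1 and CXCL8, at 143 and 138.3 TPM, while shAPT1 libraries 2 and 3 sit at 15.03 to 22.8 TPM for both genes.

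With all 9 libraries, 3 members were lower in shAPT1 than in control, CXCL3 by -2.03 ± 0.34, CXCL2 by -2.01 ± 0.35 and CXCL8 by -1.48 ± 0.47 on the log2 scale (edgeR quasi-likelihood, adjusted p = 0.00063, 0.00081 and 0.033). In this comparison 24.4% of all tested genes were called, 11.6% lower and 12.8% higher. CXCL1 had -1.40 ± 0.54 (adjusted p = 0.076) and CXCL16 -0.64 ± 0.31 (adjusted p = 0.16), so neither passed, and the other 5 members had too few reads to enter the test. The median over the 5 tested members was -1.48, beside -0.0039 over all tested genes. The CXCL8 call was lost under 8 of 20 alternatives, among them leaving out shAPT1 library 2 or 3 or any control library (adjusted p = 0.067 to 0.12).

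Library 1 was singled out because these same genes were high in it, so the p-values of a fit without it are conditioned on the outcome, are not valid as tests and are given as a description. Without it all 5 tested members passed as lower in shAPT1 than in control, with 24.7% of all tested genes called and 11.9% called lower. The 4 clustered genes then had nearly the same change, at -3.19 ± 0.12 for CXCL1, -2.95 ± 0.14 for CXCL2, -2.92 ± 0.18 for CXCL3 and -2.88 ± 0.08 for CXCL8 (adjusted p = 4.6e-10, 4e-09, 4e-08 and 3e-11). CXCL16 had -0.97 ± 0.33 (adjusted p = 0.043). Levels in shAPT1 libraries 2 and 3 averaged 11.6%, 15.3%, 13.3% and 14.45% of the control mean for CXCL1, CXCL2, CXCL3 and CXCL8. In shAPT1 library 1 the same genes stood at 105%, 58.5%, 54.9% and 88.0% of it, so that library was not displaced by the same factor for each gene.

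In APT1wt cells CXCL1 stood higher and CXCL2, CXCL8 and CXCL16 lower than in control by level, with no overlap between the groups. CXCL5, too low to be tested, also lay wholly higher in APT1wt, from 13 reads beside 5 in control. Of all tested genes, 35.0% had groups without overlap by TPM, 16.3% with APT1wt higher and 18.7% with APT1wt lower. With all 9 libraries the single member called against control was CXCL16, lower by -1.41 ± 0.34 (adjusted p = 0.0082), beside 23.4% of tested genes called, 11.6% lower and 11.8% higher. CXCL1 had 0.87 ± 0.50, CXCL2 -0.81 ± 0.31, CXCL8 -0.54 ± 0.45 and CXCL3 -0.23 ± 0.29 (adjusted p = 0.24, 0.077, 0.44 and 0.63). The median over the 5 tested members was -0.54, beside -0.0040 over all tested genes. These errors come from a spread shared by the 3 groups, shAPT1 included. When the APT1wt and control libraries were fitted alone, CXCL1 was higher (adjusted p = 6.9e-06) and CXCL2, CXCL8 and CXCL16 lower (3.6e-05, 4e-05 and 0.0037) in APT1wt, with the same fold changes to within 0.01. In that fit 31.9% of all tested genes were called, 16.0% higher and 15.9% lower. With shAPT1 libraries 2 and 3 kept in the fit and library 1 left out, the SEs were 0.08 for CXCL1, 0.10 for CXCL2 and 0.06 for CXCL8, the same 4 genes passed, and 30.8% of tested genes were called, 15.5% higher and 15.3% lower. That fit is again a description, since library 1 was left out because CXCL1, CXCL2 and CXCL8 were high in it.

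Set directly against APT1wt, shAPT1 cells had lower CXCL1 (-2.27 ± 0.54, adjusted p = 0.007), CXCL3 (-1.81 ± 0.34, adjusted p = 0.0016) and CXCL2 (-1.19 ± 0.36, adjusted p = 0.026). Of all tested genes, 25.1% were called, 12.4% lower and 12.7% higher, in this comparison. CXCL8 had -0.94 ± 0.47 and CXCL16 0.76 ± 0.35 (adjusted p = 0.16 and 0.13), and the median over the 5 was -1.19, beside 0.0012 over all tested genes. In the fit without shAPT1 library 1, again a description, the values were -4.06 ± 0.12 for CXCL1, -2.69 ± 0.18 for CXCL3, -2.35 ± 0.08 for CXCL8 and -2.14 ± 0.15 for CXCL2 (adjusted p = 2.9e-11, 1.2e-07, 1.7e-10 and 1.9e-07), with 26.2% of tested genes called and 13.1% called lower. CXCL16 went the other way in that fit, at 0.44 ± 0.36 (adjusted p = 0.42), and was not called. By TPM, CXCL1 and CXCL3 lay wholly lower in shAPT1 than in APT1wt, and CXCL2 and CXCL8 overlapped, beside 32.9% of all tested genes without overlap and 9.98% wholly lower in shAPT1. The CXCL2 call with all 9 libraries was lost under 8 of 20 alternatives, among them leaving out shAPT1 library 2 or 3 or any APT1wt library (adjusted p = 0.052 to 0.12). Because both comparisons with control use the same 3 control libraries, the direct comparison is the one that sets the engineered lines against each other.

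**Figure D2:**
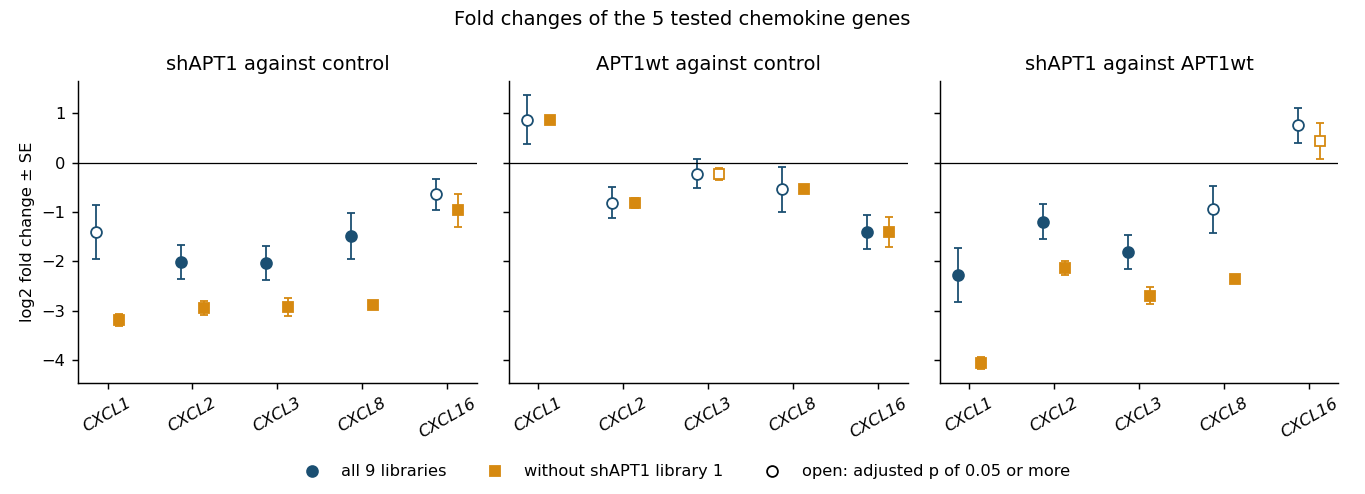
Log2 fold change ± SE of the 5 tested chemokine genes in the 3 comparisons, with all 9 libraries (circles) and without shAPT1 library 1 (squares); filled symbols passed an adjusted p of 0.05. Leaving out that library moved CXCL1 in shAPT1 against control to -3.19, against -1.40 with it, and left the APT1wt fold changes in place with smaller errors.

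By the shares of CXCL1 and CXCL8, the make-up of the chemokine RNA set APT1wt apart, whereas shAPT1 and control overlapped. In summed level the shAPT1 libraries spread from far below control to within its range. Summed over the 10 genes, the level was 316, 49.4 and 48.1 TPM in shAPT1, 397, 397 and 397 TPM in APT1wt and 299, 390.2 and 357 TPM in control. CXCL1, CXCL2, CXCL3 and CXCL8 together made up 92.7% to 98.5% of it in shAPT1, 99.4% to 99.6% in APT1wt and 99.1% to 99.2% in control. CXCL1 alone gave 31.2% to 45.3% of the sum in shAPT1, 61.6% to 63.0% in APT1wt and 37.3% to 40.1% in control. CXCL8 gave 43.8% to 47.5% in shAPT1, 27.3% to 28.4% in APT1wt and 44.6% to 46.0% in control.

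A ratio of 2 genes within a library does not depend on the scaling between libraries. The CXCL1 level over the CXCL8 level was 1.03, 0.736 and 0.658 in shAPT1, 2.28, 2.30 and 2.17 in APT1wt and 0.809, 0.896 and 0.894 in control. All 3 APT1wt libraries thus lay above all 6 others, and the shAPT1 and control libraries overlapped. The same ratio in the authors' deposited scaled table was 0.638, 0.454 and 0.406 in shAPT1, 1.41, 1.42 and 1.34 in APT1wt and 0.499, 0.553 and 0.551 in control, on a signal that is not corrected for length. CXCL3 over CXCL2 was 0.783, 0.616 and 0.879 in shAPT1, 1.22, 1.13 and 1.27 in APT1wt and 0.699, 0.93 and 0.872 in control, again highest in APT1wt. CXCL8 over CXCL2 overlapped between APT1wt, at 6.34 to 6.93, and shAPT1, at 4.46 to 8.35, and lay at 4.94 to 5.86 in control.

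**Figure D3:**
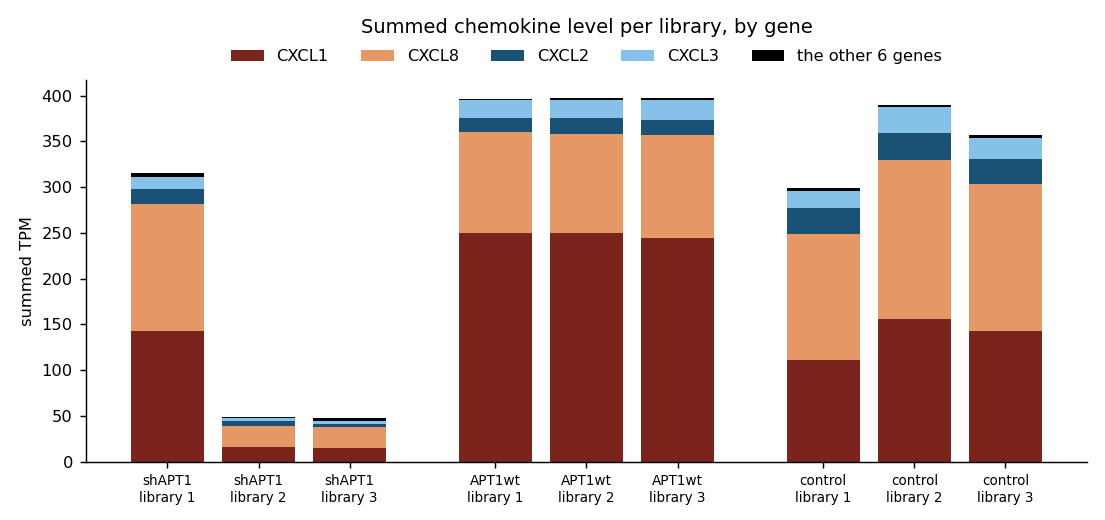
Summed level (TPM) of the 10 chemokine genes in each of the 9 libraries, split by gene; bars start at 0. The 3 APT1wt libraries each reach 397 TPM with CXCL1 as the largest part, and shAPT1 libraries 2 and 3 reach 49.4 and 48.1 TPM.

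In order of level, CXCL8 came first in shAPT1 libraries 2 and 3, then CXCL1, CXCL2 and CXCL3, and in shAPT1 library 1 CXCL1 and CXCL8 were nearly equal. In APT1wt the order was CXCL1 at 248 ± 3.1, CXCL8 at 110.3 ± 2.0, CXCL3 at 19.9 ± 1.0 and CXCL2 at 16.5 ± 0.64 TPM (mean ± SD, n = 3), with no overlap between neighbours. In control CXCL8 and CXCL1 led with 157 ± 18 and 137 ± 23 TPM, a gap within the spread of the libraries. CXCL2 at 28.3 ± 1.3 TPM and CXCL3 at 23.6 ± 4.1 TPM followed, and their control libraries overlapped. The protein-coding transcript ENST00000395761.3 carried 95.8% of CXCL1 over the 9 libraries, ENST00000307407.7 92.7% of CXCL8, ENST00000296026.4 87.3% of CXCL3 and ENST00000508487.2 81.7% of CXCL2. The retained-intron transcript ENST00000510048.1 carried 19.98% of the CXCL2 level in shAPT1, 16.7% in APT1wt and 12.5% in control, at 1.68 ± 1.0, 2.75 ± 0.43 and 3.53 ± 0.94 TPM. In shAPT1 libraries 1 to 3 it had 2.51, 1.96 and 0.567 TPM, beside 16.6, 5.06 and 3.59 TPM for CXCL2 as a whole. The pooled shAPT1 share was thus raised mainly by library 2, where CXCL2 had 49 reads.

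CXCL5 and CXCL6, the other neutrophil attractants of the cluster, were close to silent. CXCL5 had 0.194, 0 and 0.0364 TPM in shAPT1, 0.172, 0.147 and 0.160 TPM in APT1wt and 0.0879, 0.0490 and 0.0766 TPM in control, from 5, 13 and 5 reads in the 3 groups. The rate in APT1wt was 2.21-fold that in control, with an exact 95% interval of 0.738 to 7.90 that covers counting error only. CXCL6 had 1 read in APT1wt library 2 and was listed at 0 in the other 8 libraries, where a count of 0 allows up to 3 reads, or 0.161 to 0.242 CPM, counts scaled by library total.

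CXCL16, a membrane-bound chemokine that is shed by ADAM10 and binds CXCR6, carries no Glu-Leu-Arg stretch. It had 1.64, 0.598 and 0.951 TPM in shAPT1, 0.526, 0.597 and 0.914 TPM in APT1wt and 1.74, 1.76 and 1.25 TPM in control. APT1wt lay wholly below control, and shAPT1 overlapped with both. The values rest on 14.2 to 23.04 reads per shAPT1 library, 9.23 to 13.03 in APT1wt and 21.2 to 29.6 in control, as estimated by the quantification. Its call in APT1wt was lost with an offset for transcript length (-1.24, adjusted p = 0.06) and in the deposited table (-1.19, adjusted p = 0.055), over a range of adjusted p of 0.0019 to 0.06.

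The CC members were low throughout and highest in shAPT1 for CCL5 and CCL2. CCL5, or RANTES, which attracts T cells, had 1.29, 0.558 and 1.23 TPM in shAPT1, 0.271, 0.295 and 0.158 TPM in APT1wt and 0.427, 0.327 and 0.266 TPM in control. All shAPT1 libraries, library 1 included, lay above all others. CCL2, or MCP-1, which attracts monocytes, had 0.813, 0.535 and 0.926 TPM in shAPT1, 0.146, 0 and 0 TPM in APT1wt and 0, 0.207 and 0 TPM in control, from 14, 1 and 1 reads in the 3 groups, and again no shAPT1 library overlapped with the rest. By TPM, 20.7% of the 15233 tested genes lay wholly higher in shAPT1 than in control and 22.9% wholly higher than in APT1wt. CCL5 and CCL2 had too few reads to be among those genes, so these shares describe genes with more reads.

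Neither CCL5 nor CCL2 passed the filter on low counts of the reported fit. A looser filter of at least 3 reads in 3 libraries, chosen after the data were seen, admitted CCL5, which had about 3 reads in each control library, and called it higher in shAPT1 than in control by 1.78 ± 0.50 (adjusted p = 0.021), where 17.9% of 20114 genes were called and 9.21% called higher. It was also higher than in APT1wt, by 1.97 ± 0.50 (adjusted p = 0.011; 18.4% of genes called, 8.96% higher). Leaving out each library in turn under that filter, CCL5 was called against control in 4 of 9 fits, with adjusted p of 0.013 to 0.081. The read rate of CCL5 in shAPT1 was 3.596-fold that in control, with an exact 95% counting interval of 1.70 to 8.47, from 37 and 9 reads. CCL2 reached 3 reads in the shAPT1 libraries alone, so a test that admits it through them would follow from the filter, and none is given. Its read rate in shAPT1 was 12.2-fold that in control with an interval of 1.86 to 518, since control had 1 read. CCL20, the ligand of CCR6, had 0.912, 0.326 and 0.352 TPM in shAPT1, 0.647, 0.931 and 0.833 TPM in APT1wt and 0.413, 0.749 and 1.17 TPM in control, with 2 to 8 reads a library. Its groups overlapped, and the shAPT1 read rate was 0.562-fold that of control (exact 95% interval 0.215 to 1.39).

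The receptors through which the abundant members act were close to absent. CXCR1 was listed at 0 in 8 libraries and at 0.0448 TPM in control library 1, and CXCR2 did not exceed 0.0300 TPM. Of 23 chemokine receptor genes, 3 could be tested. CXCR4, the receptor of CXCL12, had 14.3, 18.7 and 18.2 TPM in shAPT1, 0.809, 2.00 and 1.61 TPM in APT1wt and 1.03, 0.847 and 0.962 TPM in control. It rose in shAPT1 against control by 4.13 ± 0.24 on the log2 scale (adjusted p = 3.4e-08). CCRL2, a receptor that binds chemerin without signalling, had 17.9, 21.6 and 21.4 TPM in shAPT1 and 13.1, 12.7 and 10.3 TPM in control (0.67 ± 0.13, adjusted p = 0.0021). For both genes shAPT1 library 1 was with its group, at 0.774-fold and 0.832-fold the mean of libraries 2 and 3. CXCR6, the receptor of CXCL16, had 0.450 to 0.632 TPM in shAPT1, 0.367 to 0.863 TPM in APT1wt and 0.317 to 0.447 TPM in control, with 0.32 ± 0.38 in shAPT1 against control (adjusted p = 0.59). Among 35 other chemokine genes 5 exceeded 1 TPM in any library, and CCL28, an epithelial CC chemokine, had 0.65 ± 0.23 in shAPT1 against control (adjusted p = 0.05, not called) and was higher in APT1wt (0.71 ± 0.23, adjusted p = 0.034). The APT1wt call was lost with the length offset and when APT1wt library 1 or 3 or control library 2 or 3 was left out.

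Of 14 tested inducing cytokines and their receptors, 7 were lower and 1 higher in shAPT1 than in control, with a median log2 fold change of -0.56, beside 11.6% lower and 12.8% higher over all tested genes. IL1A fell by 1.64 ± 0.38, IL6R by 1.58 ± 0.20, IL1B by 1.49 ± 0.31 and TNFRSF1B, a TNF receptor, by 1.34 ± 0.11 (adjusted p = 0.0063, 5.2e-05, 0.0028 and 1.5e-06). IL1A, which encodes a cytokine that induces these chemokines, had 12.5, 3.25 and 2.96 TPM in shAPT1, 17.8, 11.2 and 9.71 TPM in APT1wt and 19.5, 18.02 and 14.9 TPM in control. IL1B had 5.53, 1.45 and 2.04 TPM in shAPT1, 11.2, 10.9 and 12.5 TPM in APT1wt and 7.06, 8.53 and 6.97 TPM in control. In both genes shAPT1 library 1 was the highest of its group, as in the chemokines. TNF itself did not exceed 0.851 TPM. In APT1wt 3 of the 14 were lower than in control (median -0.14), near the 23.4% of all tested genes called there, TNFRSF1B by -1.65 ± 0.12, IL1RAP by -0.38 ± 0.10 and IL17RC by -0.38 ± 0.13 (adjusted p = 3e-07, 0.016 and 0.046). That count was 1 without APT1wt library 1 and without control library 2. Between shAPT1 and APT1wt, 5 were lower and 1 higher (median -0.31; 12.4% lower and 12.7% higher over all tested genes), with IL1B at -2.05 ± 0.29 and IL1A at -1.22 ± 0.39 (adjusted p = 0.00017 and 0.032). The lower count was 3 without shAPT1 library 2, and the higher count was 3 with library totals alone, 2 without shAPT1 library 1 and 0 without shAPT1 library 2 or APT1wt library 1.

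The NF-kappaB list, 23 genes for the subunits, their kinases and their feedback inhibitors, had 15 lower and 1 higher in shAPT1 than in control, with a median of -0.35, beside 11.6% lower and 12.8% higher over all tested genes. The largest were TNIP3 at -2.73 ± 0.35, NFKBIZ at -1.05 ± 0.16, TNIP1 at -0.96 ± 0.09 and BCL3 at -0.81 ± 0.17 (adjusted p = 6.4e-05, 0.00026, 3e-06 and 0.0036). TNIP3, which binds the NF-kappaB inhibitor A20, had 4.32, 0.474 and 1.14 TPM in shAPT1, 3.89, 4.79 and 3.55 TPM in APT1wt and 11.7, 12.8 and 12.2 TPM in control, so both engineered lines lay wholly below control. NFKBIZ, a nuclear cofactor needed for some NF-kappaB targets, had 25.1, 15.8 and 13.2 TPM in shAPT1, 29.6, 32.5 and 27.7 TPM in APT1wt and 27.4, 31.5 and 29.3 TPM in control. In APT1wt 6 of the 23 were lower than in control (median -0.12; 11.6% lower over all tested genes), led by TNIP3 (-1.57 ± 0.31, adjusted p = 0.002). Against APT1wt 10 were lower and 1 higher in shAPT1 (median -0.20; 12.4% lower and 12.7% higher over all tested genes), among them NFKBIA, the classical feedback inhibitor, at -1.10 ± 0.14 (adjusted p = 6.2e-05). That count of 10 was 5 with the length offset, 6 (with 3 higher) with library totals alone, and 6 when shAPT1 library 2, APT1wt library 2 or 3 or control library 2 or 3 was left out. Without shAPT1 library 1, 17 of the 23 were lower in shAPT1 than in control. Several list members are themselves NF-kappaB targets, as the chemokines are, so the list is not a separate reading of the pathway.

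Other factors that act on chemokine genes moved less evenly. Of 15 further transcription factors 6 were lower and 2 higher in shAPT1 than in control (median -0.05; 11.6% lower and 12.8% higher over all tested genes), with EGR1 at 1.06 ± 0.16, CEBPD at -0.91 ± 0.22, the AP-1 subunit FOSL1 at -0.64 ± 0.07 and HIF1A at 0.59 ± 0.07 (adjusted p = 0.00032, 0.008, 1.3e-05 and 3.9e-05). In APT1wt 3 were lower and 3 higher (median 0.09; 11.6% lower and 11.8% higher over all tested genes), ATF3 at -0.99 ± 0.22, EGR1 at -0.95 ± 0.19, IRF1 at 0.47 ± 0.08 and HIF1A at 0.34 ± 0.07 (adjusted p = 0.0043, 0.0027, 0.00049 and 0.0033). Of 12 factors of mRNA decay and stability 2 were called in shAPT1 against control, both lower (median -0.03), beside 24.4% of all tested genes called. ZC3H12A, which encodes the nuclease Regnase-1, stood at -2.08 ± 0.27 against control and -2.27 ± 0.27 against APT1wt (adjusted p = 7.5e-05 and 3.4e-05), and ZFP36L1 at -0.35 ± 0.06 and -0.49 ± 0.06 (adjusted p = 0.00095 and 6.5e-05). ZC3H12A had 9.92, 2.96 and 2.88 TPM in shAPT1, 21.2, 24.1 and 22.5 TPM in APT1wt and 20.4, 20.3 and 20.6 TPM in control. Here too shAPT1 library 1 was the highest of its group, though below every control library.

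Proteases that cut or shed chemokines and the proteoglycans, with the enzymes that build their chains, that hold them at the cell surface showed calls both ways. Of 10 tested proteases 2 were higher and 2 lower in shAPT1 than in control (median -0.05), beside 12.8% higher and 11.6% lower over all tested genes, DPP4 at 1.44 ± 0.37, ADAM10 at 0.50 ± 0.07, MMP14 at -0.69 ± 0.07 and CTSL at -0.49 ± 0.08 (adjusted p = 0.012, 0.00016, 1.5e-05 and 0.00032). The higher count was 1 without control library 1. In APT1wt 4 were higher and 2 lower (median 0.10; 11.8% higher and 11.6% lower over all tested genes), with MMP9, which can trim CXC chemokines, at 1.80 ± 0.24 (adjusted p = 0.00011). Of 11 tested genes of the proteoglycan list 3 were higher and 4 lower in shAPT1 than in control (median -0.06; 12.8% higher and 11.6% lower over all tested genes), with SDC2 at 2.12 ± 0.11, GPC6 at 1.54 ± 0.11 and SDC4 at -0.95 ± 0.14 (adjusted p = 1.1e-08, 4.2e-07 and 0.00017). The lower count was 2 with the length offset, with library totals alone and without shAPT1 library 2 or APT1wt library 2, and 1 without control library 2 or 3. In APT1wt 4 of the 11 were higher (median 0.11; 11.8% higher over all tested genes), SDC2 by 1.70 ± 0.11 and GPC6 by 1.25 ± 0.12 (adjusted p = 1.1e-07 and 3.4e-06).

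CXCL1, CXCL2, CXCL3 and CXCL8 varied enough over the 9 libraries for their nearest profiles to be named, with likeness measured as the root mean square difference of log2(TPM + 1) after centring each gene on its mean. Of 11888 coding genes outside the members, the nearest to CXCL1 were ZC3H12A (0.58), C3 (0.63) and IL1B (0.69), beside a median of 1.5 over all candidates. Nearest to CXCL8 were IL6 (0.35), IL1A (0.36) and ZC3H12A (0.44), beside a median of 1.09. For CXCL3 they were ZC3H12A (0.22), POU2F2 (0.28) and CSF2 (0.31), and for CXCL2 they were IL1A (0.28), IL6 (0.32) and PDZK1IP1 (0.33), beside medians of 1.05 and 0.96. IL6 had 46.8, 9.97 and 10.7 TPM in shAPT1, 25.7, 32.6 and 31.99 TPM in APT1wt and 42.4, 44.5 and 37.7 TPM in control, with shAPT1 library 1 above every control library, and its change in shAPT1 against control was -0.99 ± 0.38 (adjusted p = 0.073). C3, which encodes a complement protein, had 59.2, 24.7 and 22.5 TPM in shAPT1, 222, 217 and 221 TPM in APT1wt and 69.2, 76.7 and 68.6 TPM in control, so APT1wt lay highest as it did for CXCL1. Among themselves, CXCL2, CXCL3 and CXCL8 differed by 0.27 to 0.30, and CXCL1 differed from them by 0.64 to 0.88.

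**Figure D4:**
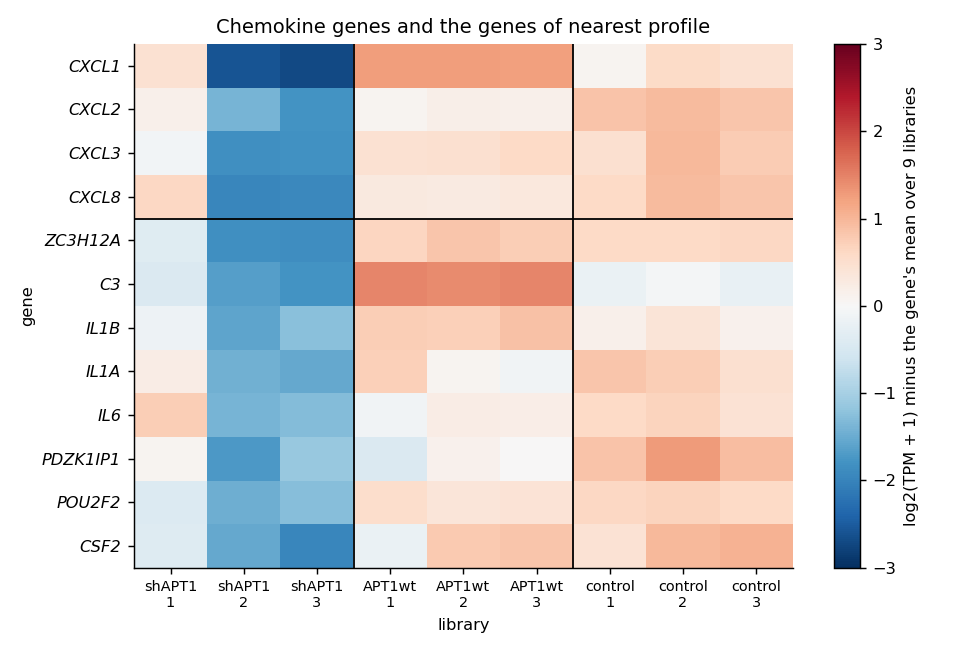
Heat map of log2(TPM + 1), centred on each gene's mean over the 9 libraries, for the 4 abundant chemokine genes (top) and the genes of nearest profile. shAPT1 libraries 2 and 3 are low in every gene, shAPT1 library 1 lies between them and control in most, and CXCL1, C3 and IL1B are highest in the 3 APT1wt libraries.

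The shift was not shared by all neighbours of the cluster. Within 400 kb on either side of the 6 clustered members lie 17 coding genes including them, a window chosen after the values were seen. Of the 11 that are not members, 3 could be tested. AREG, which encodes the growth factor amphiregulin, was higher in shAPT1 than in control (1.13 ± 0.11, adjusted p = 4.9e-06) and lower in APT1wt (-0.76 ± 0.12, adjusted p = 0.00046), with 37.2, 42.3 and 37.8 TPM in shAPT1, 9.93, 10.6 and 9.50 TPM in APT1wt and 18.5, 16.9 and 15.61 TPM in control. EREG, for epiregulin, had -0.45 ± 0.17 in shAPT1 (adjusted p = 0.074) and was lower in APT1wt (-1.37 ± 0.19, adjusted p = 0.00011). MTHFD2L, for a mitochondrial folate enzyme next to CXCL2, was lower in both lines, by -0.63 ± 0.09 in shAPT1 and -0.64 ± 0.09 in APT1wt (adjusted p = 0.00018 and 0.00015). The platelet chemokine genes PF4V1 and PPBP, which lie between the members, were listed at 0 in all 9 libraries, and PF4 did not exceed 0.722 TPM. In AREG, unlike in CXCL1 and CXCL8, shAPT1 library 1 was level with its group, at 0.93-fold the mean of libraries 2 and 3. MTHFD2L was also level, with 13.4, 12.5 and 12.2 TPM in shAPT1 libraries 1 to 3. EREG was not, with 6.67, 3.40 and 3.78 TPM in the same libraries. Its level in shAPT1 library 1 lay above every control library, and the EREG value of -0.45 includes that library.

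**Figure D5:**
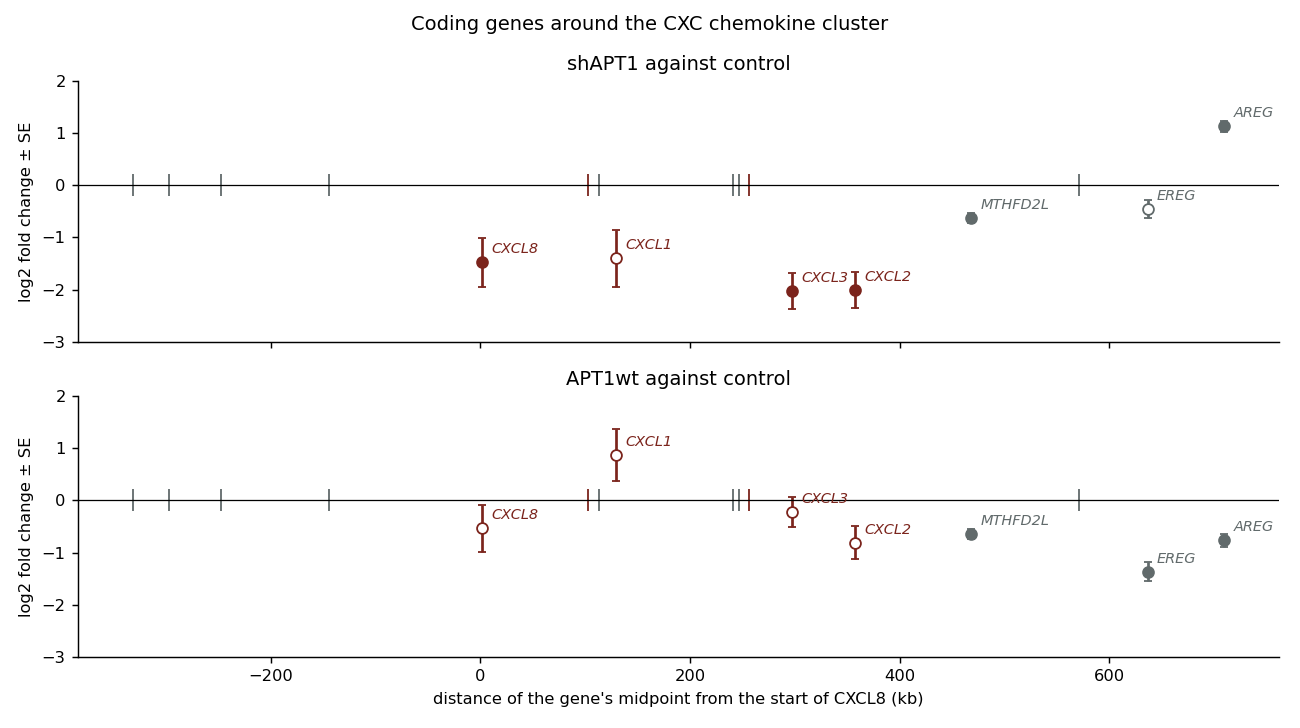
Log2 fold change ± SE of the tested coding genes around the chemokine cluster on chromosome 4, placed by the distance of each gene's midpoint from the start of CXCL8 (kb), for shAPT1 against control (top) and APT1wt against control (bottom). Chemokine members are dark red, filled points passed an adjusted p of 0.05 and ticks mark untested genes; AREG stands at 1.13 in shAPT1 while the 4 tested members stand between -2.03 and -1.40.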

How the data were processed

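RNA-seq of 9 MDA-MB-231 libraries was used, 3 each of shAPT1, APT1wt and control. Per the submitters' processing notes, the authors used FastQC, Salmon and DESeq2 with build GRCh38.p10; versions, the kit's strandedness and the alignment settings are not given in the sources used here. The deposited Salmon files hold estimated counts and TPM for 199324 transcripts. The authors' deposited gene table holds a scaled signal, and how it was scaled is not stated.

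Estimated counts were summed per gene and rounded, and genes were kept by filterByExpr and scaled by TMM. One quasi-likelihood fit took all 9 libraries without covariates, with Benjamini-Hochberg adjustment over 15233 genes at 0.05 (edgeR 4.0.16, limma 3.58.1, R 4.3.3). SE is the log2 fold change over the square root of F. TPM was summed per gene for levels. The test was checked on simulated data. Positions and transcripts came from GENCODE 29 (GRCh38), matched by gene ID without its version, and promoters from RefSeq. Exact Clopper-Pearson intervals (95%) and the floor of 3 reads cover counting error only. Python 3.11.15, pandas 2.3.3, scipy 1.17.1 and matplotlib 3.10.9 were used.

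Members and lists were chosen with earlier results of these data known. Named were the members and LYPLA1, up to 4 called genes of largest change per list and comparison, and the 3 nearest profiles of each variable member (mean of at least 1 TPM); other genes, such as IL6, TNF, AREG, EREG and MTHFD2L, were picked with their values known. Other settings tried were a stricter, a looser and no filter, DESeq2 1.42.0, limma-voom, RLE or no scaling factors, a length offset, the deposited table, fits of the compared groups alone, a replicate block and leaving out each library.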

Additional observations from a re-analysis of the deposited data

How the results depend on the processing

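The log2 fold changes of the 5 tested members kept their sign under every alternative run. In shAPT1 against control, where 3 members were called, the count was 5 without a filter on low counts, 5 with at least 3 reads in 3 libraries and 2 to 5 when each library was left out in turn. CXCL2 and CXCL3 were called lower there under all 20 alternatives, with log2 fold changes of -2.95 to -1.61 and -2.92 to -1.68. CXCL8 lost its call under 8 of 20 (-2.88 to -1.06, adjusted p of 3.3e-76 to 0.14), namely DESeq2, the length offset, the fit of 2 groups and 5 single left-out libraries. CXCL1 gained one under 5 of 19. CCL2, which reached 3 reads in shAPT1 libraries alone, is counted among the calls under the looser filter, where its call follows from the filter. In APT1wt against control, where 1 member was called, the count was 2 with limma-voom, 4 without a filter, 0 with the length offset (edgeR, 2 at an unadjusted p under 0.05), 0 in the deposited table (limma-trend, 1 at an unadjusted p under 0.05), 4 in the fit of the 2 groups alone and 1 to 4 when each library was left out. In shAPT1 against APT1wt, where 3 were called, the count was 1 with DESeq2, 6 without a filter, 5 with at least 3 reads in 3 libraries and 2 to 4 when each library was left out. Without a filter the prior degrees of freedom were infinite, so each gene took the trend's spread and its adjusted p may be too small. DESeq2 gave no adjusted p for CXCL1. Otherwise the cause of these shifts was not tested.

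With the replicate number as a block the counts were 4, 1 and 3. Same-numbered libraries of different groups did not deviate together (correlations of -0.0509 to 0.103), so the numbers were not taken as pairs. Over all genes, 3719, 3568 and 3829 calls in the 3 comparisons compare with 2310, 2230 and 2370 with the length offset and 2326, 2236 and 2357 in the deposited table. With library totals alone 1327 calls were lower and 2628 higher in shAPT1 than in APT1wt, against 1888 lower and 1941 higher. Of 924 list results under an alternative, 77 moved by more than 1.5 times. Members with under 10 reads in most libraries (CXCL5, CXCL6, CCL2, CCL5, CCL20) are limited by depth.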
